A study of Drosophila melanogaster with 6 samples.

Results

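The 10 genes described here encode enzymes of glycolysis and of the glycerophosphate branch in *Drosophila melanogaster*: *Pfk*, *Ald*, *Tpi*, *Gapdh1*, *Gapdh2*, *Pgk*, *Pglym78*, *Eno*, *PyK* and *Gpdh*. They were taken by symbol, and all 10 were found among the 15115 genes listed and among the 11304 genes tested. RNA was sequenced from pools of whole pharate adult males, the stage just before the fly leaves the pupal case, at 96 to 108 hours after puparium formation. Double H3.3 K27R males (yw, H3.3B K27R; H3.3A K27R / H3.3A K27R), H3.3B K27R males (yw, H3.3B K27R) and wild type males (yw) gave 2 libraries each, so that every group carries the yw background; the mutant genotypes are called double mutant and H3.3B mutant below. In the K27R alleles, lysine 27 of the replication-independent histone H3.3 is replaced by arginine in the endogenous gene, which lies on the X chromosome for *H3.3B* and on chromosome 2 for *H3.3A*. Which of the edited lines was sequenced is not given in the sources used here, and nothing says that replicates came from separate crosses, so that p-values measure only the spread between these libraries. The study asked how gene expression depends on lysine 27 of H3.3, and the levels of these enzymes were compared between the genotypes in that design.

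Glycolysis splits a sugar phosphate into triose phosphates and oxidises these to pyruvate. Phosphofructokinase, encoded by *Pfk*, commits the sugar to the pathway, and pyruvate kinase, encoded by *PyK*, makes its last product. Insect flight muscle makes little lactate: cytosolic glycerol-3-phosphate dehydrogenase, encoded by *Gpdh*, regenerates NAD from NADH by turning a triose phosphate into glycerol-3-phosphate, which a mitochondrial oxidase turns back. This cycle, the glycerophosphate shuttle, links glycolysis to respiration, and *Gpdh* also serves lipid synthesis in the fat body.

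Each library held between 1535941 and 2118264 reads on genes, and the deposited values are RPKM, in which reads are divided by gene length and by the library's counted reads. These values gave back whole reads, so that a member had between 160 and 5181 reads in a library, and counting error alone ranged from 1.4% for *Ald* to 7.9% for *Pgk*. Differences were tested with limma on log2(RPKM + 1). A gene was called where the adjusted p was under 0.01 and the log2 fold change over 1 in size. The study applied these thresholds to another test, DESeq2 on read counts, so that its calls are not those given here. The 12 flight muscle markers were all expressed, with summed RPKM between 20340 and 22550, and the male-specific RNAs *roX1* and *roX2* between 185.2 and 241.9. The yolk protein genes, which mark females, summed to between 0.608 and 2.916 RPKM, and *Yp1* had 0 reads in every library, which allows up to 3 reads.

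The 10 genes were among the most strongly expressed in these males, between the 88.9th and 99.2nd percentile of the genes tested, and together they took between 0.712% and 0.816% of all reads. The order of mean RPKM over the libraries was *Gapdh1* (805.7), *Ald* (651.6), *Pglym78* (367.7), *PyK* (261.2), *Eno* (251.1), *Tpi* (243.1), *Gapdh2* (208.6), *Gpdh* (177.3), *Pfk* (95.32) and *Pgk* (53.56). Among the 5 genes from *PyK* to *Gpdh* in this order, most ranges over the 6 libraries ran into each other. Those of *Eno* and *Tpi*, however, lay wholly above that of *Gapdh2*. The ranges were 216.0 to 303.0 RPKM for *PyK*, 234.6 to 269.0 for *Eno* and 233.2 to 251.6 for *Tpi*. For *Gapdh2* and *Gpdh* they were 191.0 to 223.0 and 112.6 to 264.0. The order of *Gpdh* and *Gapdh2* differed between genotypes, with means of 202.0 and 213.8 RPKM in double mutants, 115.2 and 216.6 in H3.3B mutants, and 214.8 and 195.5 in wild type. The lowest level belonged to phosphoglycerate kinase, the enzyme of the step after glyceraldehyde-3-phosphate dehydrogenase, whose *Gapdh1* RPKM was between 12.1 and 17.4 times that of *Pgk* within a library. These levels per length depend on the length used. The RPKM of *Ald* rests on 3852 bp, while its BDGP6 transcripts measure 1279 to 2636 bp, and per kilobase of the longest transcript its level would be 952, above the 807 of *Gapdh1*. *Eno* (350) and *Gpdh* (244) would also stand higher in the order.

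**Figure D1:**
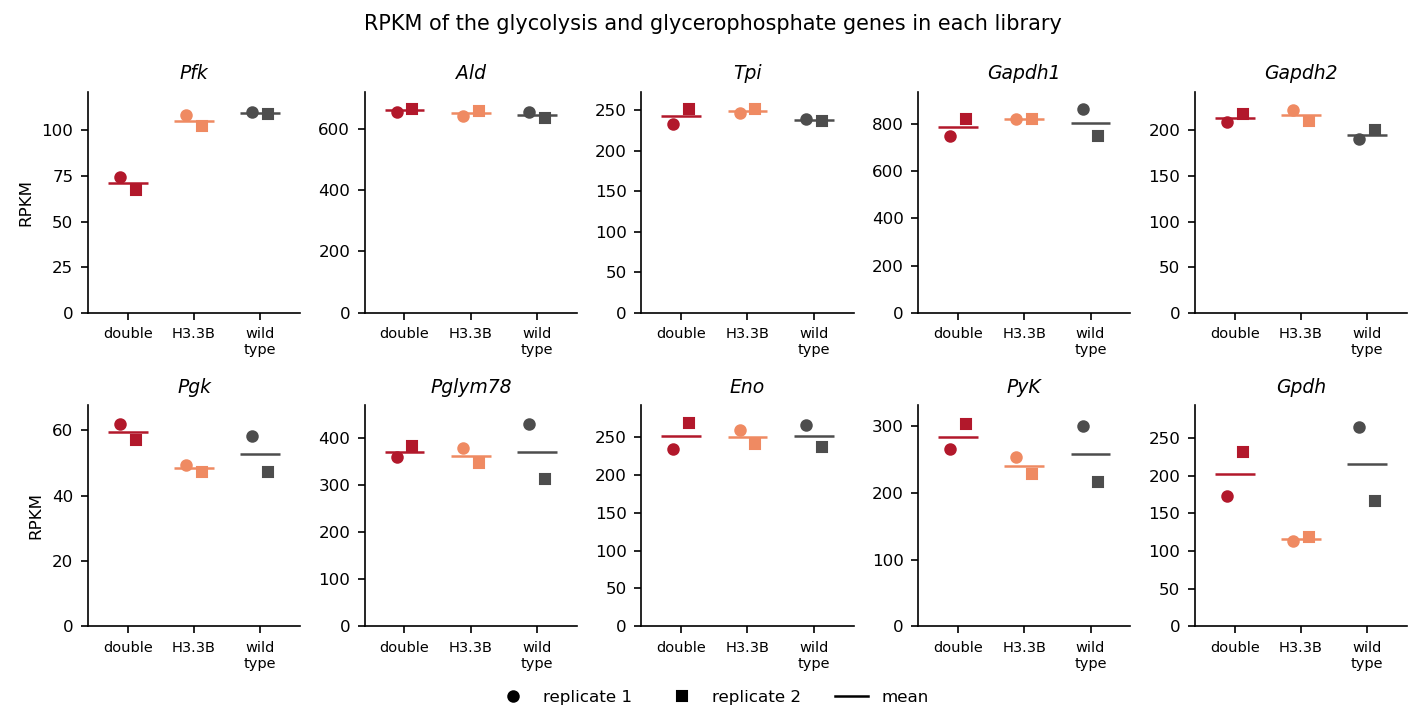
RPKM (linear axis from 0) of each of the 10 genes in the 2 libraries of double mutant, H3.3B mutant and wild type males; circles and squares are replicates 1 and 2, and lines are means. *Pfk* is at 67.23 to 74.67 in double mutants against 109.2 to 110.1 in wild type, and *Gpdh* is lowest in H3.3B mutants, at 112.6 and 117.8.

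In double mutants against wild type, 0 of the 10 genes were called, where 15 of the 11304 genes tested were (0.133%). At an adjusted p below 0.05 with no limit on the fold change there were also 0 members, against 0.832% of all genes. At an unadjusted p below 0.05 there was 1 member, *Pfk*, against 14.8% of all genes. The median log2 fold change was 0.021 over the members and -0.00049 over all genes tested, and the median absolute log2 fold change was 0.048 over the members and 0.25 over all genes. The libraries of both genotypes did not overlap for *Gapdh2*, higher in double mutants (22.4% of all genes were higher in this way), and for *Pfk*, lower (22.2% of all genes). All members are in the upper part of the expression range, where fold changes of all genes scatter less, as the plot of fold change against level shows.

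*Pfk* (FBgn0003071) lies on chromosome arm 2R at 10109740 to 10117457 on the plus strand of BDGP6. Its RPKM was 74.67 and 67.23 in double mutants, 108.3 and 102.5 in H3.3B mutants, and 110.1 and 109.2 in wild type males, from 452 to 1012 reads a library. Both double mutant libraries were thus below every other library. Against wild type the mean was 70.95 ± 5.26 in double mutants and 109.6 ± 0.679 in wild type (SD, n = 2 each), a log2 fold change of -0.62 (standard error, SE, 0.11, 95% interval -0.88 to -0.37) or 0.65-fold. The unadjusted p was 0.000864 and the limma adjusted p over all genes was 0.0746, so that the difference did not pass. With voom weights on the recovered reads the adjusted p was 0.0123, and over 16 alternatives it ranged from 0.0123 to 0.274, with the log2 fold change between -0.70 and -0.55. The ratio of *Pfk* to *Ald* RPKM within a library, which does not depend on the scaling between libraries, was 0.114 and 0.101 in double mutants, 0.169 and 0.156 in H3.3B mutants, and 0.168 and 0.172 in wild type. In whole animals, fewer cells that express a gene and less RNA per cell cannot be told apart. For genes on chromosome 2, such as *Pfk*, the *H3.3A* K27R allele and other sequence of the chromosome that carries it cannot be told apart either.

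For the other enzymes of the upper part of the pathway no difference passed. Aldolase, which splits fructose bisphosphate, is encoded by *Ald* (FBgn0000064, named *Ald1* in BDGP6, 3R, 26254069 to 26261591). *Ald* had 654.4 and 665.4 RPKM in double mutants, 642.2 and 657.1 in H3.3B mutants, and 655.6 and 635.0 in wild type, so that all 6 libraries lay within a narrow band. Its 95% interval against wild type was -0.19 to 0.25 on the log2 scale in double mutants and -0.21 to 0.23 in H3.3B mutants. Triose phosphate isomerase, which interconverts the pair of triose phosphates, is encoded by *Tpi* (FBgn0086355, 3R, 30132981 to 30134599). *Tpi* had 233.2 and 251.6 RPKM in double mutants, 246.9 and 251.5 in H3.3B mutants, and 238.8 and 236.6 in wild type. Its log2 fold change was 0.027 (SE 0.09) in double mutants and 0.068 (SE 0.09) in H3.3B mutants against wild type, neither of which passed (adjusted p = 0.929 and 0.816, limma).

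Glyceraldehyde-3-phosphate dehydrogenase, the first oxidative step, is encoded by *Gapdh1* (FBgn0001091, 2R, 7791901 to 7793380) and *Gapdh2* (FBgn0001092, X, 15868145 to 15869661). *Gapdh1* had 752.2 and 824.0 RPKM in double mutants, 821.9 and 823.8 in H3.3B mutants, and 863.1 and 749.4 in wild type, where the replicates of wild type enclosed all other libraries. *Gapdh2* had 209.1 and 218.5 RPKM in double mutants, 223.0 and 210.2 in H3.3B mutants, and 191.0 and 200.1 in wild type. All 4 mutant libraries were above both wild type libraries, by a log2 fold change of 0.13 (SE 0.10, adjusted p = 0.603) in double mutants and 0.15 (SE 0.10, adjusted p = 0.574) in H3.3B mutants, and neither difference passed in limma. The wild type libraries are shared by both comparisons. *Gapdh1* made up 78.2% and 79.0% of the summed RPKM of both genes in double mutants, 78.7% and 79.7% in H3.3B mutants, and 81.9% and 78.9% in wild type, so that the mutant shares overlapped with wild type.

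For the 4 genes of the lower part no difference passed either. Phosphoglycerate kinase makes ATP, and *Pgk* (FBgn0250906, 2L, 2746880 to 2753068) had 61.96 and 57.03 RPKM in double mutants, 49.43 and 47.27 in H3.3B mutants, and 58.31 and 47.39 in wild type. Phosphoglycerate mutase moves the phosphate within the molecule, and *Pglym78* (FBgn0014869, 3R, 29148248 to 29149901) had 358.7 and 381.7 RPKM in double mutants, 378.2 and 346.0 in H3.3B mutants, and 428.7 and 312.9 in wild type. The wild type replicates of *Pglym78* again enclosed all mutant libraries. Enolase, encoded by *Eno* (FBgn0000579, 2L, 1724768 to 1729636), had 234.6 and 269.0 RPKM in double mutants, 259.3 and 240.6 in H3.3B mutants, and 265.8 and 237.1 in wild type. Its group means were the closest of the 10 genes to each other between double mutant (251.8 ± 24.3) and wild type males (251.5 ± 20.4; SD, n = 2 each), with a 95% interval of -0.28 to 0.29 on the log2 scale. *PyK* (FBgn0267385, 3R, 22367536 to 22372746) had 265.5 and 303.0 RPKM in double mutants, 253.4 and 228.9 in H3.3B mutants, and 300.5 and 216.0 in wild type. For *PyK* the higher wild type library was 1.39 times the lower, which leaves the 95% interval in double mutants against wild type at -0.26 to 0.57.

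**Figure D2:**
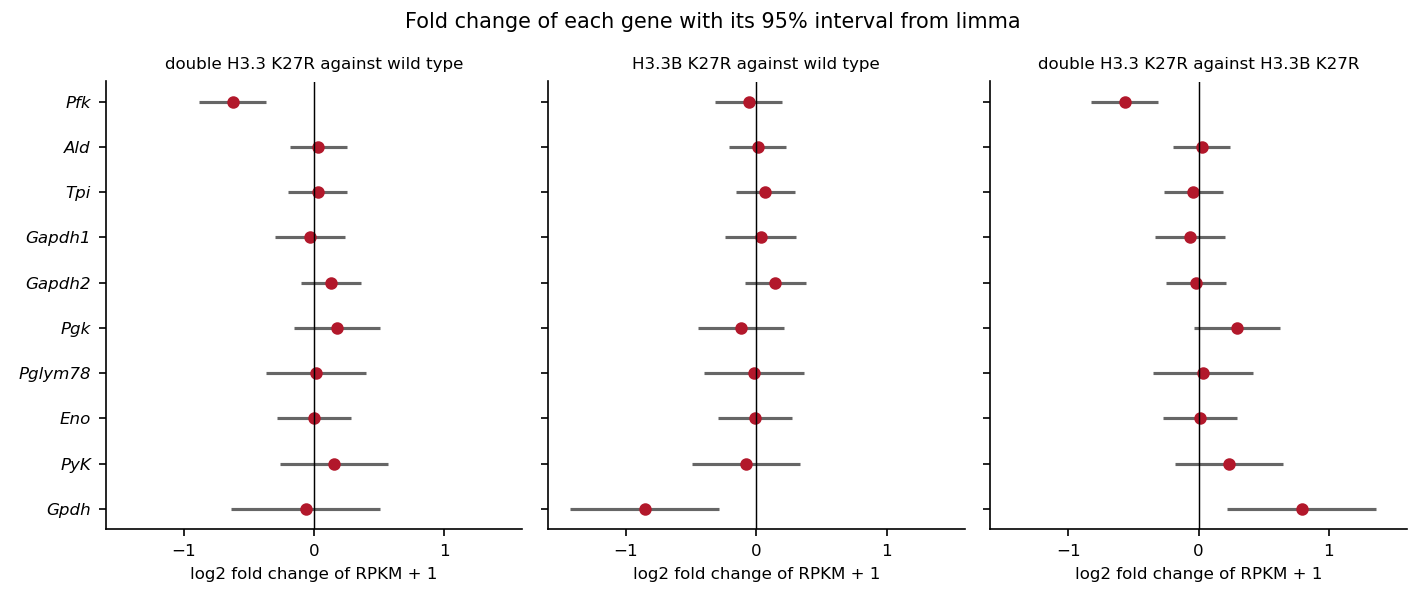
Log2 fold change of RPKM + 1 (x axis) with its 95% interval from limma for each of the 10 genes (y axis, in pathway order with *Gpdh* last) in 3 comparisons. Intervals that leave out 0 belong to *Pfk* (-0.62 and -0.57) in both comparisons of double mutants and to *Gpdh* in the comparisons with H3.3B mutants (-0.86 and 0.79); none of these passed after adjustment over all genes.

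In H3.3B mutants against wild type, 0 of the 10 genes were called, and 1 of all genes tested was (0.00885%). There were 0 members at an adjusted p below 0.05 (0.0619% of all genes) and 1 at an unadjusted p below 0.05, *Gpdh* (12.4% of all genes). The median log2 fold change was -0.013 over the members and -0.017 over all genes. *Gapdh2* and *Tpi* were higher without overlap of the libraries, 2 of 10 members against 19.6% of all genes. *Gpdh* and *Pfk* were lower without overlap, 2 of 10 against 25.3% of all genes, although the difference of *Pfk* was only -0.06 on the log2 scale (SE 0.11).

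*Gpdh* (FBgn0001128, *Gpdh1* in BDGP6) lies on 2L at 5943643 to 5948968 on the plus strand. Its RPKM was 173.3 and 230.6 in double mutants, 112.6 and 117.8 in H3.3B mutants, and 264.0 and 165.6 in wild type, from 650 to 1447 reads a library. Both H3.3B mutant libraries were below the other 4, while double mutant and wild type overlapped. H3.3B mutants averaged 115.2 ± 3.64 RPKM and wild type males 214.8 ± 69.6 (SD, n = 2 each), a log2 fold change of -0.86 (SE 0.24, 95% interval -1.43 to -0.28) or 0.553-fold. The unadjusted p was 0.0101 and the limma adjusted p was 0.273, and over 16 alternatives the adjusted p ranged from 0.136 to 0.668 and the log2 fold change from -1.19 to -0.52. In double mutants the log2 fold change was -0.064 (SE 0.24, adjusted p = 0.933), and it was 0.27 without wild type replicate 1. The *Gpdh* replicates differed 1.33-fold in double mutant, 1.05-fold in H3.3B mutant and 1.59-fold in wild type males, where counting error was between 2.6% and 3.9% of a value. Exons of a non-coding RNA on the opposite strand, lncRNA:CR44986, cover 22.1% of the exon bases of *Gpdh* in BDGP6. The strand setting of the read counting is not given in the sources used here, so that reads from both genes cannot be told apart.

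In double mutant against H3.3B mutants, which differ in the *H3.3A* allele, 0 of the 10 genes were called (7 of all genes, 0.0619%) and 0 had an adjusted p below 0.05 (0.31% of all genes). *Gpdh* and *Pfk* had an unadjusted p below 0.05, 2 of 10 against 12.5% of all genes. Both lie on chromosome 2, where the *H3.3A* allele and other sequence of the chromosome that carries it cannot be told apart. *Gpdh* was higher by 0.79 on the log2 scale (SE 0.24, unadjusted p = 0.0143, adjusted p = 0.252, limma), with both double mutant libraries above both H3.3B mutant libraries. *Pfk* was lower by a log2 fold change of -0.57 (SE 0.11, unadjusted p = 0.00146, adjusted p = 0.105), which became 0.025 with voom weights and ranged from 0.025 to 0.44 over 16 alternatives. *Gpdh*, *Pgk* and *PyK* were higher without overlap, 3 of 10 against 25.5% of all genes, and *Pfk* lower, 1 of 10 against 19.2%. The log2 fold change of *Pgk* was 0.29 (SE 0.14, adjusted p = 0.453) and that of *PyK* 0.23 (SE 0.17, adjusted p = 0.636).

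**Figure D3:**
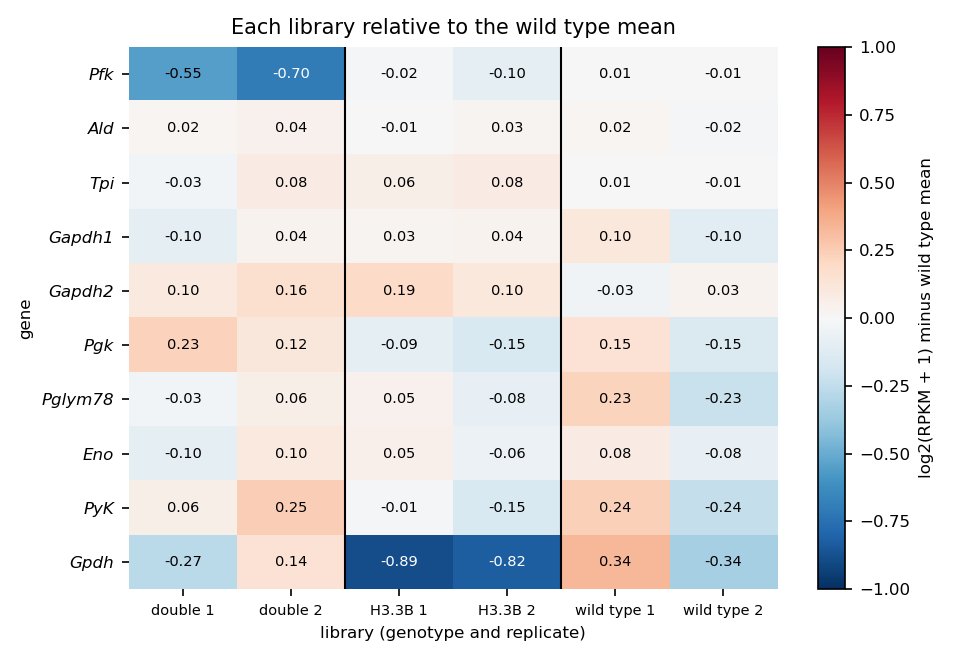
Each cell gives log2(RPKM + 1) of a gene (rows) in a library (columns, double mutant, H3.3B mutant and wild type, replicates 1 and 2) minus the mean of the wild type libraries; blue is lower and red is higher. *Pfk* is at -0.55 and -0.70 in the double mutant libraries, *Gpdh* is at -0.89 and -0.82 in the H3.3B mutant libraries, and the first wild type library is above the second for 9 of the 10 genes.

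In wild type and double mutants most members differed in the same direction between replicates. Replicate 1 of wild type was above replicate 2 for 9 of the 10 genes, with a median log2 difference of 0.18, where the median over all genes tested was -0.051. In double mutants replicate 2 was above replicate 1 for 8 of 10, with a median of -0.099 for replicate 1 minus 2, and in H3.3B mutants replicate 1 was above for 6 of 10, with a median of 0.071. The median absolute difference between replicates was nevertheless smaller for the members than for all genes: 0.12 and 0.25 in double mutant, 0.071 and 0.21 in H3.3B mutant, and 0.18 and 0.26 in wild type males. All genes tested include weakly expressed ones, and the members were not compared with genes of their own level. The mean of the centred members stood at 0.15 on the log2 scale in the first wild type library and between -0.078 and 0.064 in the other 5 libraries. Among the 1324 other genes that averaged 50 RPKM or more, those most like this profile over the 6 libraries were *CG41128* (Pearson r = 0.988), *Cyt-c-p* (0.982), *CG9603* (0.967), *BG642163* (0.96) and *Gs2* (0.96). *Cyt-c-p* encodes cytochrome c, the electron carrier of respiration, and had 3021 and 3572 RPKM in double mutants, 3160 and 2918 in H3.3B mutants, and 3807 and 2830 in wild type. *CG9603*, named *COX7A* in BDGP6 after a subunit of cytochrome oxidase, had 202.0 and 238.9 RPKM in double mutants, 201.3 and 195.7 in H3.3B mutants, and 244.1 and 192.9 in wild type. These points share library and scaling, and the profile rests mainly on the first wild type library.

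**Figure D4:**
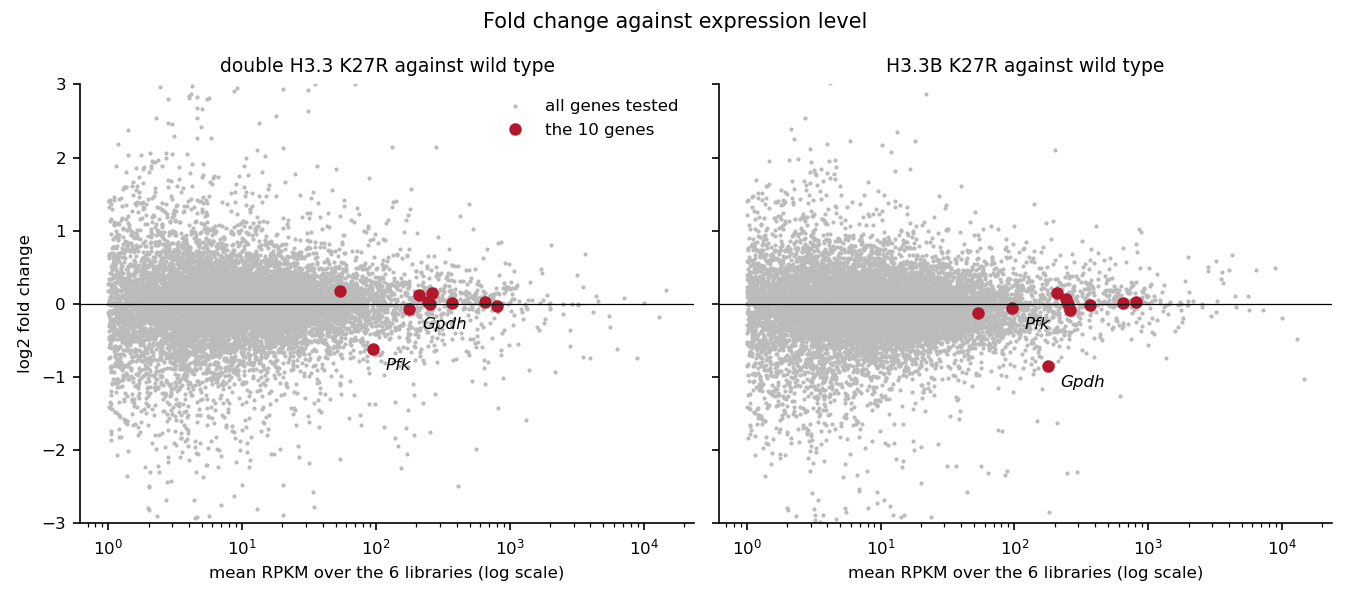
Log2 fold change (y axis) against mean RPKM over the 6 libraries (x axis, log scale) for double mutant and H3.3B mutants against wild type; grey points are the 11304 genes tested, of which 29 and 25 lie beyond the axis limit of 3, and red points are the 10 genes. Except for *Pfk* in the first panel (-0.62) and *Gpdh* in the second (-0.86), the red points lie between -0.12 and 0.17.

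Flies carry further genes related in sequence to these enzymes, and 10 of the 11 on the list were in the table, all at levels below the members. They are *CG5432* (*Ald2* in BDGP6), *CG3215* (*Gpdh2*), *Pglym87*, *CG9961*, *CG7059*, *CG7069*, *CG2964*, *CG7362*, *CG11249* and *CG12229*, at 4.728 to 45.17 RPKM. *CG7069* starts 88 bp past *PyK* on 3R and *CG9961* lies 1945 bp from *Pgk* on 2L. Reads that fit more than 1 copy could have been split between a member and its copies, and how such reads were counted is not given in the sources used here. Of these 10 genes 0 had an adjusted p below 0.05 in any comparison. *CG7069* had 23.96 and 15.47 RPKM in double mutants, 27.33 and 23.86 in H3.3B mutants, and 34.07 and 28.05 in wild type, a log2 fold change of -0.65 (SE 0.23, adjusted p = 0.271) in double mutants. *CG12229* had 17.07 and 14.95 RPKM in double mutants, 17.84 and 15.28 in H3.3B mutants, and 20.52 and 24.57 in wild type. All mutant libraries of both genes were below both wild type libraries. *CG5432* had 22.90 and 22.98 RPKM in double mutants, 14.74 and 22.65 in H3.3B mutants, and 29.15 and 28.33 in wild type, and *CG3215* had 9.382 and 12.91 RPKM in double mutants, 7.765 and 11.86 in H3.3B mutants, and 17.14 and 14.44 in wild type.

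As a list, the related genes had a median log2 fold change against wild type of -0.30 in double mutants and -0.35 in H3.3B mutants, where the members had 0.021 and -0.013 and all genes tested -0.00049 and -0.017. The libraries were lower without overlap for 6 of 10 in double mutants, against 22.2% of all genes, and for 9 of 10 in H3.3B mutants, against 25.3%. Both counts use the same wild type libraries, and the related genes had only 11 to 160 reads in a library. The 12 testis markers were lower as well: 11 of 12 were lower without overlap in each mutant genotype, their median log2 fold change was -0.51 in double mutants and -0.46 in H3.3B mutants, and their summed RPKM was 2020 and 1896 in double mutants, 1920 and 1975 in H3.3B mutants, and 2603 and 2762 in wild type. None of the 12 was at 0 in any library, and their lowest adjusted p was 0.0804 and 0.17 in these comparisons (limma). The largest testis differences in double mutants were a log2 fold change of -0.76 for *Mst84Dc*, -0.76 for *Mst87F* and -0.68 for *dj*, which encode proteins of maturing sperm. The part of testis RNA in the levels of the related genes was not tested.

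The next step of the glycerophosphate shuttle is the mitochondrial oxidase, for which 3 genes were on the list and 0 had an adjusted p below 0.05. *Gpo-1*, which holds most of their RNA, had 328.0 and 321.5 RPKM in double mutants, 381.0 and 386.0 in H3.3B mutants, and 361.0 and 334.3 in wild type. It was thus highest in the genotype in which *Gpdh* was lowest, and the ratio of *Gpdh* to *Gpo-1* RPKM was 0.528 and 0.717 in double mutants, 0.296 and 0.305 in H3.3B mutants, and 0.731 and 0.495 in wild type. Lactate dehydrogenase, another enzyme that can regenerate NAD, is encoded by *ImpL3*. This gene had 6.35 and 6.573 RPKM in double mutants, 5.547 and 5.304 in H3.3B mutants, and 6.01 and 6.02 in wild type. These values rest on only 16 to 24 reads a library, so that ratios to *ImpL3* are coarse. *Gpdh* RPKM was between 20.3 and 43.9 times that of *ImpL3*. *Gpo-1* and *ImpL3* were named here after their values were seen.

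**Figure D5:**
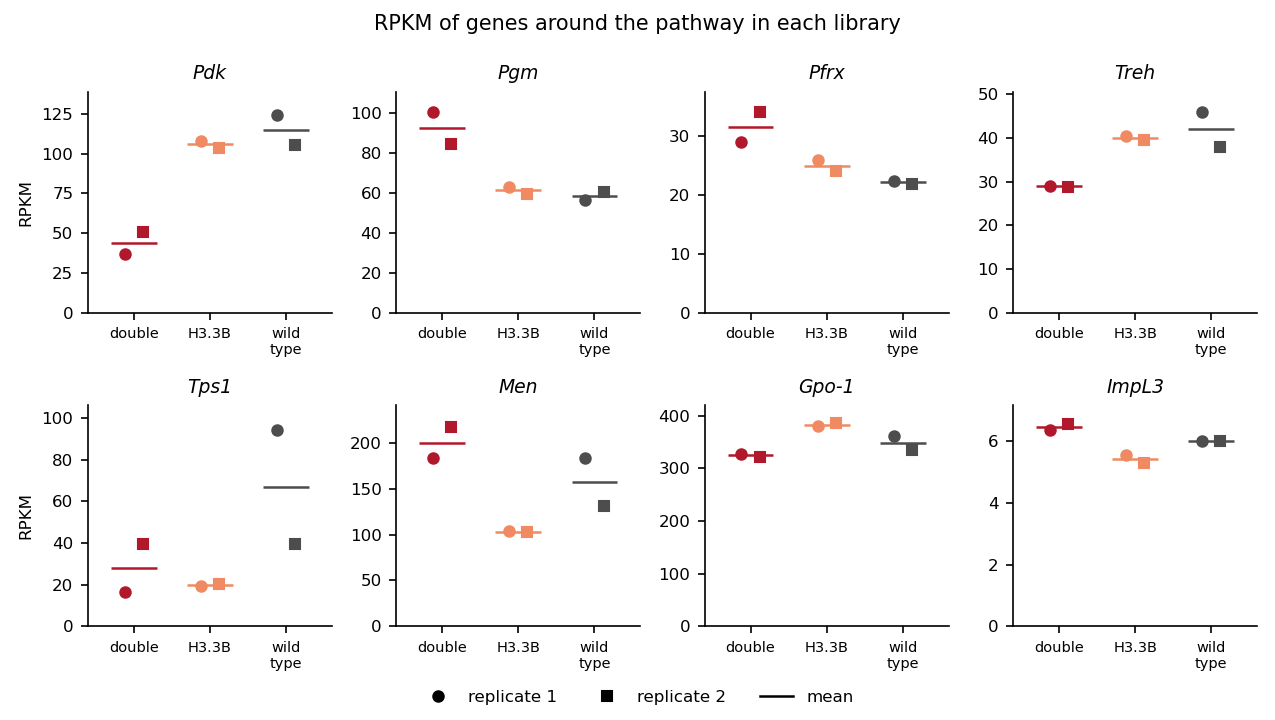
RPKM (linear axis from 0) of 8 genes around the pathway in the 2 libraries of double mutant, H3.3B mutant and wild type males; circles and squares are replicates 1 and 2, and lines are means. *Pdk* is at 37.2 and 50.83 in double mutants and above 103 in all other libraries, and *Pgm* is above 84 in double mutants and below 64 in all others.

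Of 14 genes that feed sugar, trehalose or glycogen into glycolysis, 0 had an adjusted p below 0.05 in any comparison. In double mutants against wild type 2 were higher and 2 lower at an unadjusted p below 0.05. At this rule 14.8% of all genes were higher or lower, and the median log2 fold change over the list was -0.015. *Pgm*, phosphoglucomutase, which joins glycogen breakdown to glycolysis, had 100.5 and 84.78 RPKM in double mutants, 63.16 and 59.58 in H3.3B mutants, and 56.6 and 60.71 in wild type. This was a log2 fold change of 0.65 against wild type (SE 0.13, unadjusted p = 0.00173, adjusted p = 0.0903, limma) with no overlap of the libraries. *Pfrx*, the enzyme that makes and breaks fructose-2,6-bisphosphate, an activator of phosphofructokinase, had 28.95 and 34.15 RPKM in double mutants, 25.9 and 24.07 in H3.3B mutants, and 22.46 and 21.87 in wild type, a log2 fold change of 0.49 (SE 0.14, adjusted p = 0.202) in double mutants. *Treh*, trehalase, which splits the blood sugar of insects, had 29.13 and 28.91 RPKM in double mutants, 40.38 and 39.56 in H3.3B mutants, and 46.02 and 37.93 in wild type, a log2 fold change of -0.51 (SE 0.14, adjusted p = 0.173). In all these genes both double mutant libraries stood apart from the other 4, with *Pgm* and *Pfrx* above and *Treh* below. *Treh* lies on 2R, so that the limit given for *Pfk* applies to it. In H3.3B mutants against wild type 0 of this list were higher and 1 lower at an unadjusted p below 0.05 (all genes, 12.4%). The lower gene was *Tps1*, trehalose-6-phosphate synthase (named for that reason). *Tps1* had 16.57 and 39.69 RPKM in double mutants, 19.49 and 20.09 in H3.3B mutants, and 94.47 and 39.29 in wild type.

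Of 15 genes that take up, oxidise or divert pyruvate, 1 had an adjusted p below 0.05, in double mutants against wild type (all genes, 0.832%). This was *Pdk*, pyruvate dehydrogenase kinase, which switches off the entry of pyruvate into the citric acid cycle by phosphorylating pyruvate dehydrogenase. *Pdk* had 37.2 and 50.83 RPKM in double mutants, 108.1 and 103.5 in H3.3B mutants, and 124.3 and 105.2 in wild type. Both double mutant libraries were far below the other 4. *Pdk* lies on 2R, so that, as for *Pfk*, the *H3.3A* K27R allele and other sequence of its chromosome cannot be told apart. The log2 fold change was -1.37 against wild type (SE 0.17, adjusted p = 0.0326, limma) or 0.386-fold, and -1.26 against H3.3B mutants (SE 0.17, adjusted p = 0.06). Against wild type it was not called at the study's thresholds except with voom weights (adjusted p = 0.00121), and it did not pass 0.05 with the replicate block (0.0896), without a trend (0.109), in a fit of only the genotypes compared (0.115), or without any 1 of the libraries (0.0842 to 0.181). The genes of the pyruvate dehydrogenase complex, on which this kinase acts, had no member with an adjusted p below 0.05. *Men*, the NADP-dependent malic enzyme, had 183.3 and 217.9 RPKM in double mutants, 103.8 and 102.9 in H3.3B mutants, and 183.6 and 131.8 in wild type, and was named after its values were seen. On the log2 scale it was -0.58 in H3.3B mutants against wild type (SE 0.17, adjusted p = 0.296) and 0.94 in double mutants against H3.3B mutants (SE 0.17, adjusted p = 0.101).

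The 16 genes of the citric acid cycle varied little between genotypes. None of them had an unadjusted p below 0.05 in any comparison. Of all genes, 14.8% had in double mutants and 12.4% in H3.3B mutants against wild type, and 12.5% between the mutants. The log2 fold changes of the 16 genes lay between -0.13 and 0.10 in double mutants and between -0.11 and 0.15 in H3.3B mutants against wild type. The 12 flight muscle markers had summed RPKM of 21410 and 22550 in double mutants, 20340 and 20670 in H3.3B mutants, and 22050 and 20640 in wild type, with 0 of 12 at an adjusted p below 0.05 in any comparison. In H3.3B mutants against wild type, where *Gpdh* was lower, 11 of the 12 markers had a log2 fold change below 0. So had 5885 of the 11304 genes tested. The median was -0.030 over the markers and -0.017 over all genes. Without overlap of the libraries, 4 of 12 were lower (25.3% of all genes) and 0 higher (19.6%). In double mutants against wild type 9 of the 12 were above 0, with 2 higher (22.4%) and 1 lower (22.2%) without overlap. Between double and H3.3B mutants 10 of the 12 were above 0, as were 6103 of the 11304 genes tested. In that comparison 5 were higher (25.5% of all genes) and 1 lower (19.2%) without overlap. The 6 fat body markers, listed for larval and adult fat body together, had summed RPKM of 4803 and 6297 in double mutants, 4656 and 3582 in H3.3B mutants, and 3614 and 4136 in wild type, and none was at 0. Whether this sum follows the amount of fat body that expresses *Gpdh* was not tested. Within this list *Lsp1beta* had 4.358 and 3.499 RPKM in double mutants, 832.0 and 556.6 in H3.3B mutants, and 574.6 and 572.8 in wild type (double mutants against wild type, adjusted p = 5.7e-05, limma). *Lsp1beta* lies on 2L, so that the limit given for *Pfk* applies to it. By contrast, *Lsp1gamma* and *Lsp1alpha* had log2 fold changes of 1.36 (adjusted p = 0.057, limma) and 1.33 (adjusted p = 0.0971) in double mutants against wild type. The 7 photoreceptor markers summed to 1366 and 1372 RPKM in double mutants, 1143 and 1258 in H3.3B mutants, and 1183 and 1251 in wild type, with none at 0. Of these, *Arr1*, *ninaC* and *ninaE* had log2 fold changes of 0.48, -0.34 and 0.29 in double mutants against wild type, none with an adjusted p below 0.05. The part of muscle, fat body or eye RNA in the levels of *Gpdh* and *Pfk* was not tested.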

How the data were processed

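RNA of whole pharate males was made into libraries with the NuGEN Ovation system. Per the labels and the study's methods, the authors aligned reads with STAR 2.5.2b to a modified dm3 genome, counted them on genes with Subread 1.28.1 and deposited RPKM values; DESeq2 1.18.1 was named for their own comparisons, whose fold changes, base means, test statistics and p-values were also deposited by the authors and were not used. Libraries were assigned by their labels. All 73342 RPKM values above 0 gave whole reads (100% within 0.01 of a whole number), of which the smallest numbers that fit were taken.

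RPKM were tested in 1 fit of 6 libraries with genotype as the factor, with limma 3.58.1 in R 4.3.3 and a mean-variance trend on log2(RPKM + 1), over 11304 genes whose RPKM averaged 1 or more. Fold changes understate those of weak genes. An exact permutation test of 2 against 2 libraries cannot go below p = 0.333 and was not used. The procedure was tested on simulated data. The changes planted there were larger than those of any member, so that changes of the members' size were not tested.

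The members and lists were chosen with earlier results of these data known. Named are the 10 genes, related copies, list genes with an adjusted p below 0.05, up to 3 per list with the largest change in double mutants among those with an unadjusted p below 0.05 and no overlap, and the 5 most similar profiles. Alternatives were a pseudocount of 0.1, no filter or a mean of 5, quantile scaling, median centring, 2 genotypes only, a replicate block, voom weights, no trend, each library left out, a looser call rule and, added after the data were seen, swapped replicate numbers and transcript lengths. Positions are from BDGP6 (10 of 10 members matched), and were not used for counting. Read intervals cover counting error only. No spike-in reads were analysed here.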

Additional observations from a re-analysis of the deposited data

How the results depend on the processing

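No member was called under any alternative, and the direction of *Pfk* in both comparisons of double mutants and of *Gpdh* in both comparisons with H3.3B mutants held under all of them. The number of genes called in double mutants against wild type, 15, was 4 in a fit of only the 2 genotypes, 3 with the replicate block, 4 without a trend, 53 with voom weights, 94 with the looser rule, and 1 to 5 without single libraries. In H3.3B mutants against wild type, 1 became 7 with voom weights, 7 with the looser rule and 0 to 1 without single libraries. In double mutant against H3.3B mutants, 7 became 4 without a filter, 2 with only the 2 genotypes, 2 with the replicate block, 40 with voom weights, 2 without a trend, 35 with the looser rule and 2 without any single library. No pairing of samples by replicate number is given in the sources used here. Deviations of same-numbered libraries had r = -0.209 between double mutant and wild type, 0.0165 between H3.3B mutant and wild type, and 0.00931 between both mutants. These values cannot decide whether samples were paired, under these numbers or others. With the numbers of double mutant swapped, 3, 1 and 2 genes were called in double mutant against wild type, H3.3B mutant against wild type and between the mutants.

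Small fold changes changed sign, none of them called. Quantile scaling gave log2 values in H3.3B mutants against wild type of -0.033 for *Ald*, -0.066 for *Gapdh1*, 0.024 for *Pfk* and 0.026 for *Eno*, and 0.025 for *Gapdh1* between the mutants. Median centring gave 0.035 for *Pglym78* and 0.046 for *Eno* in H3.3B mutants against wild type, and -0.029 for *Ald*, -0.019 for *Pglym78* and -0.044 for *Eno* between the mutants. Without single libraries the log2 fold change in double mutants against wild type ran from -0.399 to 0.271 for *Gpdh*, -0.132 to 0.071 for *Gapdh1*, -0.212 to 0.241 for *Pglym78*, -0.097 to 0.099 for *Eno*, -0.083 to 0.391 for *PyK* and -0.028 to 0.081 for *Tpi*. In H3.3B mutants against wild type it ran from -0.013 to 0.033 for *Ald*, -0.069 to 0.135 for *Gapdh1*, -0.266 to 0.028 for *Pgk*, -0.244 to 0.209 for *Pglym78*, -0.089 to 0.075 for *Eno* and -0.318 to 0.156 for *PyK*. Between the mutants it ran from -0.129 to 0.002 for *Gapdh1*, -0.061 to 0.024 for *Gapdh2*, -0.031 to 0.097 for *Pglym78*, -0.090 to 0.106 for *Eno* and -0.096 to 0.014 for *Tpi*. Where a library was left out, the lone library of that genotype was assumed to vary like the others. The cause of these changes was not tested. With 2 libraries a genotype, the 95% intervals against wild type of members other than *Pfk* in double mutants reached as far as -0.64 (*Gpdh*) and 0.57 (*PyK*) on the log2 scale.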

Other observations

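A few genes near the pathway differed between replicates of double mutants and of wild type. *CG9399*, listed with a synonym of the mitochondrial pyruvate carrier, had 5.933 and 34.17 RPKM in double mutants, 5.553 and 7.08 in H3.3B mutants, and 23.17 and 5.357 in wild type. Its high libraries were the second of double mutant and the first of wild type, the libraries in which most of the 10 glycolysis and glycerophosphate genes also stood above their replicate. *CG9485*, on the list of genes that feed glycogen into glycolysis, had 40.05 and 63.42 RPKM in double mutants, 47.56 and 47.6 in H3.3B mutants, and 81.8 and 55.69 in wild type. *GlyP*, glycogen phosphorylase, had 943 and 1219 RPKM in double mutants, 1017 and 965.1 in H3.3B mutants, and 1222 and 863.8 in wild type. These genes were chosen after their values were seen.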
